A study of Mus musculus with 14 samples.

Results

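The genes of the cell cycle and of cell proliferation were followed in mouse brain as a list of 40 genes. They were chosen by name for their role in DNA replication, mitosis or the arrest of the cycle. The choice was not made on a measured value, but earlier results of these data were known when it was made. Of the 40 genes, 35 were among the 13866 genes counted. The levels of Tyms, Cdk1, Bub1, Mki67 and Hmgb2 were not analysed here, and only their promoters are included below. After a filter on low counts, 26 of the 35 were tested among 11852 genes, and the other 9 are described by their counts.

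RNA from brains of mice aged 19 days was counted by MARSseq, a method that sequences the 3′ ends of transcripts, in 14 libraries of 4 groups. WT mice (C57BL/6JOlaHsd) received PBS (WT + PBS, 3 libraries) or conduritol B-epoxide (WT + CBE, 3 libraries), which irreversibly blocks acid beta-glucosidase, a lysosomal enzyme whose gene is mutated in Gaucher disease. MyTrMaSt null mice received PBS (MyTrMaSt + PBS, 3 libraries) or CBE (MyTrMaSt + CBE, 5 libraries). They lack Myd88, Ticam1 (TRIF), Mavs and Tmem173 (STING), adaptor proteins that pass on signals from innate sensors of nucleic acids and microbial products, and the comparison asks whether the response of the brain to CBE differs without them. Injections were intraperitoneal and daily from postnatal day 8, with CBE at 100 mg/kg, so that the inhibitor was not aimed at the brain or at 1 cell type. Whole-tissue RNA was used, in which a change in the number of cells of a type cannot be told apart from a change in RNA per cell. The labels do not say whether the libraries of a group came from separate litters, and p-values measure only the spread between these samples.

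The libraries held between 1290616 and 3704691 counts, the smallest being WT + PBS replicate 1. That library also stood apart from its group: the SD over genes of its log2 deviations from the group was 0.73, against 0.21 to 0.42 in the other 13. Pairs of libraries of 1 group all differed by more than counting noise (chi-square per degree of freedom 2.35 to 21.0). Xist, which is expressed from the inactive X chromosome of females, had 0 counts in all 3 WT + PBS libraries and between 1 and 47 counts in WT + CBE, so that sex and treatment are partly mixed in WT. It had 32 to 46 counts in MyTrMaSt + PBS and 0 to 39 in MyTrMaSt + CBE, where replicate 4 was the library at 0. Of the targeted genes, Myd88 was lower in MyTrMaSt than in WT after CBE (log2 fold change -1.77 ± 0.26, adjusted p = 0.000294), Ticam1 (-0.34 ± 0.33, adjusted p = 0.982) and Mavs (-0.64 ± 0.37, adjusted p = 0.791) did not pass, and Tmem173 was at 0.33 ± 0.27 (adjusted p = 0.965). Whether the deleted stretches of these genes include the 3′ ends that were counted is not given in the sources used here.

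A cell that divides first passes through G1, where D-type cyclins bring it towards DNA synthesis. In S phase the MCM helicase opens the double helix and the sliding clamp PCNA holds the polymerase on the template, and in mitosis cyclin B with Cdk1, Polo-like kinase and Aurora kinases condense and separate the chromosomes until the anaphase-promoting complex ends the phase. In the brain of the third postnatal week most neurons have left the cycle, while glial cells, microglia and a few progenitor zones can still divide, and Cdkn1a (p21), a target of p53, blocks cyclin-dependent kinases. Many promoters of S phase genes hold sites of the E2F factors, and many of mitotic genes hold CCAAT boxes together with a cell cycle genes homology region (CHR). Where promoters are shown, the letters searched on both strands were TTTGAA for the CHR, CCAAT, and TTTCCCGC, TTTCGCGC, TTTGCCGC and TTTGGCGC for E2F, and matches are printed in capitals.

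After CBE, 11 of the 26 tested members were higher in WT brain and 6 in MyTrMaSt brain. In WT these were 3 of 7 helicase and clamp genes, 1 of 2 mitotic cyclins, 4 of 4 mitotic kinases and regulators, Tk1, Top2a and Cdkn1a, and 0 of the 3 G1 cyclins and 0 of the 3 centromere, spindle and cytokinesis genes passed. Birc5, Plk1, Ccnb2, Mcm3 and Cdkn1a rose in both genotypes. Mcm5, Mcm6, Tk1, Aurkb, Ube2c and Top2a passed in WT and not in MyTrMaSt, and Cenpa passed in MyTrMaSt and not in WT. Passing means an adjusted p below 0.05 by edgeR's quasi-likelihood test with Benjamini-Hochberg adjustment over all 11852 genes, and levels are in CPM, the edgeR counts relative to the library total after scaling for library composition. Among all genes tested, 6.7% were higher and 3.89% lower with CBE in WT, and 5.32% were higher and 2.44% lower in MyTrMaSt. No member was lower in either genotype by this test or by DESeq2. At an unadjusted p below 0.05, 15 members were higher and 0 lower in WT, against 12.1% and 12.6% of all genes, and 12 were higher and 1, Stmn1, was lower in MyTrMaSt, against 13.6% and 10.1% of all genes. The median log2 fold change of the 26 members was 0.80 in WT, where that of all genes was -0.02, and 0.59 in MyTrMaSt, where that of all genes was 0.01. With 10 of the 11 genes in WT and 5 of the 6 in MyTrMaSt the change was at least 2-fold. In WT, 16 members had every CBE library above every PBS library, against 15.1% of all genes, and 1, Stmn1, had every CBE library below, against 12.8%. In MyTrMaSt the same counts were 8 members above, against 11.8% of all genes, and 0 below, against 10.7%. The count of members that passed in WT was 13 without WT + PBS replicate 1 and 8 without WT + PBS replicate 3 or WT + CBE replicate 2. It was 7 when only the compared groups were fitted and 3 when at least 10 counts were required in every library, which left 13 members to test. With the Xist level as a covariate it was 4 in WT (Ccnb2, Birc5, Ube2c and Cdkn1a) and 4 in MyTrMaSt (Mcm3, Ccnb2, Plk1 and Cdkn1a). In MyTrMaSt it was 8 without WT + PBS replicate 1, but 1 (Plk1) without MyTrMaSt + PBS replicate 2, 2 (Ccnb2 and Cdkn1a) without replicate 3 and 2 without replicate 1, which were Ccnd3 and Mcm7 and none of the 6. Thus 7 of the 11 calls in WT and 0 of the 6 in MyTrMaSt held whichever library was left out, where the gene could be tested.

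**Figure D1:**
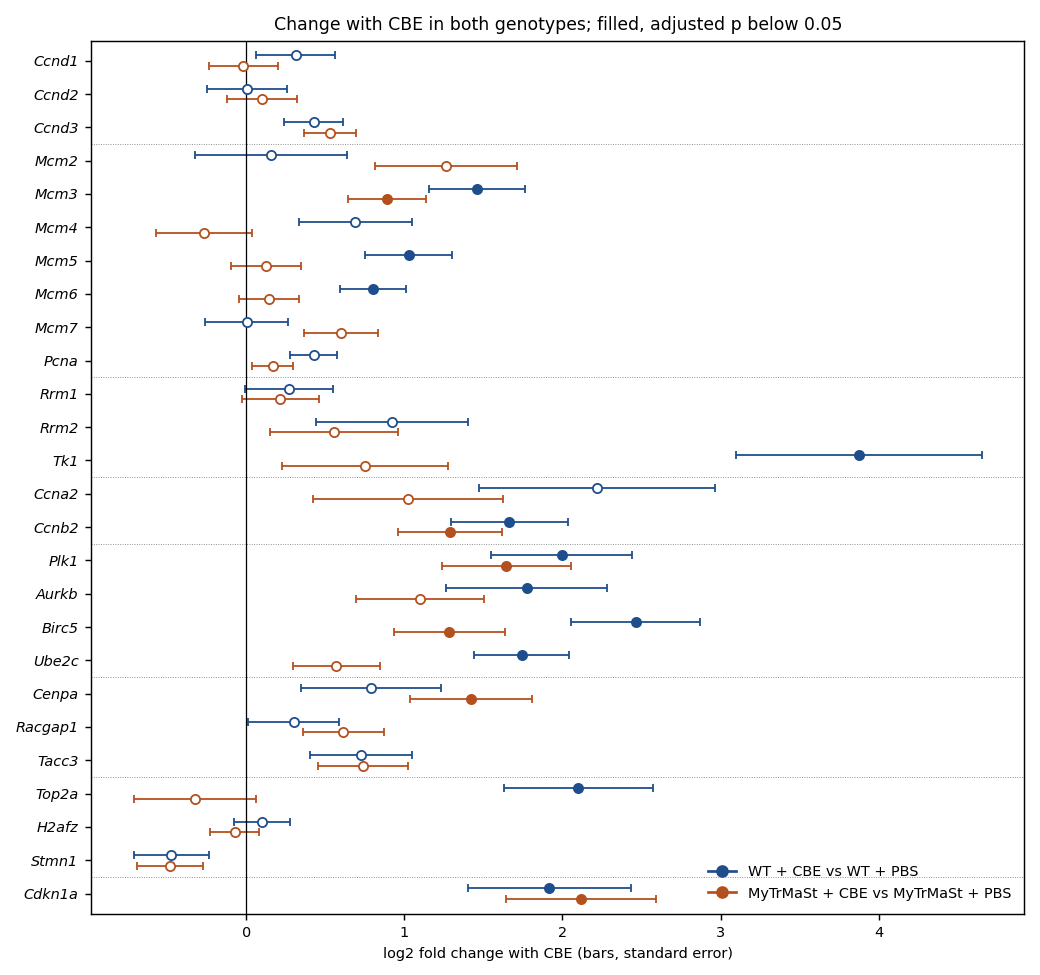
Log2 fold change with CBE against PBS (x axis) of each of the 26 tested members (y axis, by role) in WT and in MyTrMaSt, with bars of 1 standard error and filled points for an adjusted p below 0.05 (edgeR quasi-likelihood). Filled points all lie to the right of 0, 11 in WT and 6 in MyTrMaSt, and the value of Tk1 in WT rests on 2 counts in the WT + PBS libraries.

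The D-type cyclins Ccnd1, Ccnd2 and Ccnd3, which activate Cdk4 and Cdk6 in G1, did not pass in either genotype. Ccnd3 did not overlap between treatments in WT, at 85.7, 68.8 and 67.5 CPM in the WT + PBS libraries and 99.8, 95.7 and 100.02 CPM in WT + CBE. Its fold change was 0.43 ± 0.19 on the log2 scale in WT (adjusted p = 0.163) and 0.53 ± 0.17 in MyTrMaSt (adjusted p = 0.0589, edgeR), where the PBS libraries held 75.6, 46.5 and 60.9 CPM and the CBE libraries 72.9 to 98.5 CPM. Ccnd1 ranged from 29.0 to 62.3 CPM in WT + PBS, a spread that covered all 3 WT + CBE libraries (41.8 to 55.3 CPM).

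Of the 6 helicase subunits Mcm2 to Mcm7 and the clamp Pcna, 3 of 7 rose in WT and 1 of 7 in MyTrMaSt. Mcm3 was at 3.61, 4.14 and 3.80 CPM in WT + PBS and at 13.7, 8.92 and 9.04 CPM in WT + CBE. The MyTrMaSt libraries held 5.87, 4.49 and 6.34 CPM after PBS and 10.1, 9.01, 12.97, 8.37 and 10.6 CPM after CBE. The CBE libraries thus lay above the PBS libraries in both genotypes, with log2 fold changes of 1.46 ± 0.30 in WT (adjusted p = 0.00375) and 0.89 ± 0.25 in MyTrMaSt (adjusted p = 0.0329, edgeR). Mcm6 was at 13.5, 14.1 and 10.5 CPM in WT + PBS and at 22.4, 23.0 and 21.1 CPM in WT + CBE, a rise of 0.80 ± 0.21 on the log2 scale (adjusted p = 0.0200). In MyTrMaSt the Mcm6 values were 13.1, 12.9 and 10.2 CPM after PBS and 12.5, 13.1, 14.6, 15.8 and 11.4 CPM after CBE. These 2 groups overlapped (log2 difference 0.14 ± 0.19, adjusted p = 0.688), and all 5 MyTrMaSt + CBE libraries lay below all 3 WT + CBE libraries. The difference between the genotypes after CBE was -0.73 ± 0.18 (adjusted p = 0.0376).

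Mcm5 was at 4.51, 8.29 and 5.06 CPM in WT + PBS and at 14.5, 12.2 and 12.1 CPM in WT + CBE (log2 fold change 1.03 ± 0.28, adjusted p = 0.0225, edgeR). In MyTrMaSt it was at 11.05, 10.04 and 10.2 CPM already after PBS, above every WT + PBS library, and at 9.01 to 14.03 CPM after CBE (0.13 ± 0.22, adjusted p = 0.782). The clamp Pcna, loaded around DNA at replication forks, had all 3 WT + CBE libraries (107, 88.7 and 88.0 CPM) above the WT + PBS libraries (75.8, 71.8 and 65.0 CPM), but did not pass (0.43 ± 0.15, adjusted p = 0.0762). Mcm2, Mcm4 and Mcm7 passed in neither genotype, with adjusted p from 0.0952 (Mcm2 in MyTrMaSt) upwards. The calls in this group depended on single libraries: that of Mcm5 in WT was lost without WT + PBS replicate 3 or WT + CBE replicate 1 (adjusted p up to 0.104), that of Mcm6 without those libraries or WT + CBE replicate 2 (up to 0.0783), and that of Mcm3 in MyTrMaSt without any 1 of the 3 PBS libraries or CBE replicate 3 or 5 (up to 0.154). Between the genotypes after CBE, the call of Mcm6 was lost in 9 of 14 such fits (up to 0.176).

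The promoters of Mcm5 (chr8:75109349-75109508, + strand) and Mcm6 (chr1:128359706-128359865, - strand) are shown over the 160 bases before their start in the RefSeq annotation of GRCm38.p6, since both genes passed in WT and not in MyTrMaSt and both hold E2F and CCAAT letters there.
Mcm5: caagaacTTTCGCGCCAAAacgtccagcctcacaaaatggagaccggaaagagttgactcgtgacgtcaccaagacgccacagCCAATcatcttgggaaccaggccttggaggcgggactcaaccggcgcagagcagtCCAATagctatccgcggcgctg
Mcm6: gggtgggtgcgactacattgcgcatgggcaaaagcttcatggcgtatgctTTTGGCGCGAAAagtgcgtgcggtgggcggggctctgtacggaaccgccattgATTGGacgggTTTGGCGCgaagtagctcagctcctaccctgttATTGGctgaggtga
In Mcm5 the E2F letters were found on both strands in overlapping matches from 153 and 149 bases before the start, and CCAAT lay 77 and 22 bases before it. In Mcm6 an overlapping pair of E2F matches lay 110 and 106 bases before the start and a further match at 47 bases, with CCAAT on the opposite strand at 57 and 14 bases. E2F and CCAAT letters near the start were not limited to genes that passed in WT only. Mcm3, which passed in both genotypes, held E2F letters 19 and 38 bases after its start. Mcm7, which passed in neither, held them 165 bases before and 16 bases after the start in 1 of its 2 promoters. These promoters of Mcm3 and Mcm7 also held CCAAT letters.

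Of the genes that supply deoxynucleotides, Tk1, thymidine kinase of S phase cells, rose in WT. It had 0, 2 and 0 counts in the WT + PBS libraries and 5.53, 5.16 and 3.01 CPM in WT + CBE, so that its fold change is best read as a ratio of summed counts per depth, 17.2 with a 95% counting interval of 4.42 to 148 (adjusted p = 0.00276, edgeR). MyTrMaSt + PBS libraries held 2.42, 1.32 and 0.704 CPM and MyTrMaSt + CBE libraries 3.90, 2.25, 3.24, 0.492 and 2.35 CPM. They overlapped, with a ratio of 1.72 (0.887 to 3.49) and an adjusted p of 0.414. The counts of Tk1 share exon sequence with Afmid on the other strand, and whether counting used strand is not given in the sources used here. Rrm1 and Rrm2, the subunits of ribonucleotide reductase, did not pass, with log2 fold changes from 0.22 (Rrm1 in MyTrMaSt) to 0.92 (Rrm2 in WT).

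Ccnb2, a B-type cyclin that activates Cdk1 at the entry into mitosis, rose in both genotypes. It was at 1.80, 2.49 and 3.37 CPM in WT + PBS and at 9.60, 8.92 and 6.63 CPM in WT + CBE. The WT + PBS values rest on 2, 9 and 8 counts. The MyTrMaSt values were 1.73, 1.85 and 4.23 CPM after PBS and 7.403, 6.01, 6.48, 6.89 and 4.70 CPM after CBE. No CBE library overlapped with the PBS libraries of its genotype, and the log2 fold changes were 1.66 ± 0.37 in WT (adjusted p = 0.00644) and 1.29 ± 0.33 in MyTrMaSt (adjusted p = 0.0215, edgeR). The call in MyTrMaSt was lost without PBS replicate 1 or 2 (adjusted p up to 0.123). Ccna2, the cyclin of S phase and early mitosis, was at 1.80, 1.11 and 0 CPM in WT + PBS and at 4.36, 4.69 and 3.01 CPM in WT + CBE, but did not pass (2.22 ± 0.75, adjusted p = 0.0674). Its 5 MyTrMaSt + CBE libraries reached from 0 in replicate 4 to 4.86 CPM in replicate 3.

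The 160 bases before the start of Ccnb2 (chr9:70421555-70421714, - strand) are shown for their evenly spaced CCAAT boxes.
Ccnb2: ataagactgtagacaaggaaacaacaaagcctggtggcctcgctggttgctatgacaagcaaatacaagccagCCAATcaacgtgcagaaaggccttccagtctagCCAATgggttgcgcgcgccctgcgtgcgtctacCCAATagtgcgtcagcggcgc
The boxes lay 87, 54 and 21 bases before the start, 33 bases apart in each case. The CHR letters were found outside the printed stretch, 167 bases before and 4 bases after the start.

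Of the kinases and regulators of mitosis, 4 of 4 tested members passed in WT and 2 of 4 in MyTrMaSt. Plk1, the Polo-like kinase that drives centrosome maturation and spindle assembly, was at 1.80, 2.49 and 0.844 CPM in WT + PBS and at 7.56, 6.10 and 8.44 CPM in WT + CBE. Among MyTrMaSt libraries Plk1 was at 0.345, 2.38 and 1.76 CPM after PBS and at 4.68, 5.26, 4.46, 6.40 and 4.31 CPM after CBE. The CBE libraries were all above the PBS libraries, with log2 fold changes of 1.995 ± 0.45 (adjusted p = 0.00663) and 1.65 ± 0.41 (adjusted p = 0.0175, edgeR). Birc5 (survivin), a subunit of the chromosomal passenger complex that holds Aurora B at the centromere, was at 2.71, 1.66 and 0.844 CPM in WT + PBS and at 9.89, 9.39 and 6.63 CPM in WT + CBE. In MyTrMaSt it was at 1.73, 2.38 and 2.11 CPM after PBS and at 5.46, 3.76, 4.05, 7.88 and 5.09 CPM after CBE. Birc5 had the lowest adjusted p of all members in WT, 0.000449 for a log2 fold change of 2.46 ± 0.41, and it rose by 1.28 ± 0.35 in MyTrMaSt (adjusted p = 0.0307). Aurkb (Aurora B) itself rose by 1.78 ± 0.51 in WT (adjusted p = 0.0319), from 0.902, 1.38 and 0.844 CPM to 2.91, 5.63 and 3.62 CPM, and its value in MyTrMaSt was 1.10 ± 0.41 (adjusted p = 0.108). All 5 MyTrMaSt + CBE libraries of Aurkb, at 2.35 to 5.67 CPM, were above the 3 PBS libraries, at 1.38 to 1.85 CPM. In counts, the WT + PBS libraries held 2, 9 and 2 of Plk1 and 3, 6 and 2 of Birc5. They held 1, 5 and 2 of Aurkb, and MyTrMaSt + PBS replicate 1 held 1 of Plk1. Several of these values lie under the floor of 3 counts set for low genes, so the baselines of these fold changes rest on few counts.

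Ube2c, the ubiquitin-conjugating enzyme of the anaphase-promoting complex, differed between the genotypes after CBE. It was at 1.80, 5.80 and 6.75 CPM in WT + PBS and at 18.9, 17.4 and 17.5 CPM in WT + CBE, a rise of 1.74 ± 0.30 on the log2 scale (adjusted p = 0.000631, edgeR). The WT + PBS values rest on 2, 21 and 16 counts. In MyTrMaSt it was at 6.22, 4.23 and 6.34 CPM after PBS and at 8.96, 6.38, 8.11, 7.39 and 10.2 CPM after CBE, with the highest PBS library just below the lowest CBE library and a log2 fold change of 0.57 ± 0.28 (adjusted p = 0.219). All 5 MyTrMaSt + CBE libraries were below all 3 WT + CBE libraries, a difference of -1.13 ± 0.24 (adjusted p = 0.0114). The difference between the changes in the 2 genotypes was -1.17 ± 0.41 and did not pass (adjusted p = 0.278). The summed level of the group, with Bub1b and Cdc20 included, was 9.02 to 12.4 CPM in WT + PBS, 40.4 to 42.8 CPM in WT + CBE, 11.05 to 13.7 CPM in MyTrMaSt + PBS and 23.7 to 28.6 CPM in MyTrMaSt + CBE. The ranges of the PBS groups overlapped, that of MyTrMaSt + CBE lay above them, and that of WT + CBE above all others. The call of Aurkb in WT was lost without any 1 of the 3 PBS libraries or CBE replicate 2 or 3 (adjusted p up to 0.153) and by DESeq2, and the value of Plk1 in WT was 2.62 without WT + PBS replicate 2. The calls of Birc5 and Plk1 in MyTrMaSt were lost without 6 and 2 of the 14 libraries (up to 0.110 and 0.0779). The difference of Ube2c between the genotypes was lost without WT + CBE replicate 1 (0.0987). Plk1 and Ube2c share exon sequence with genes on the other strand, Gm44985 and Tnnc2.

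**Figure D2:**
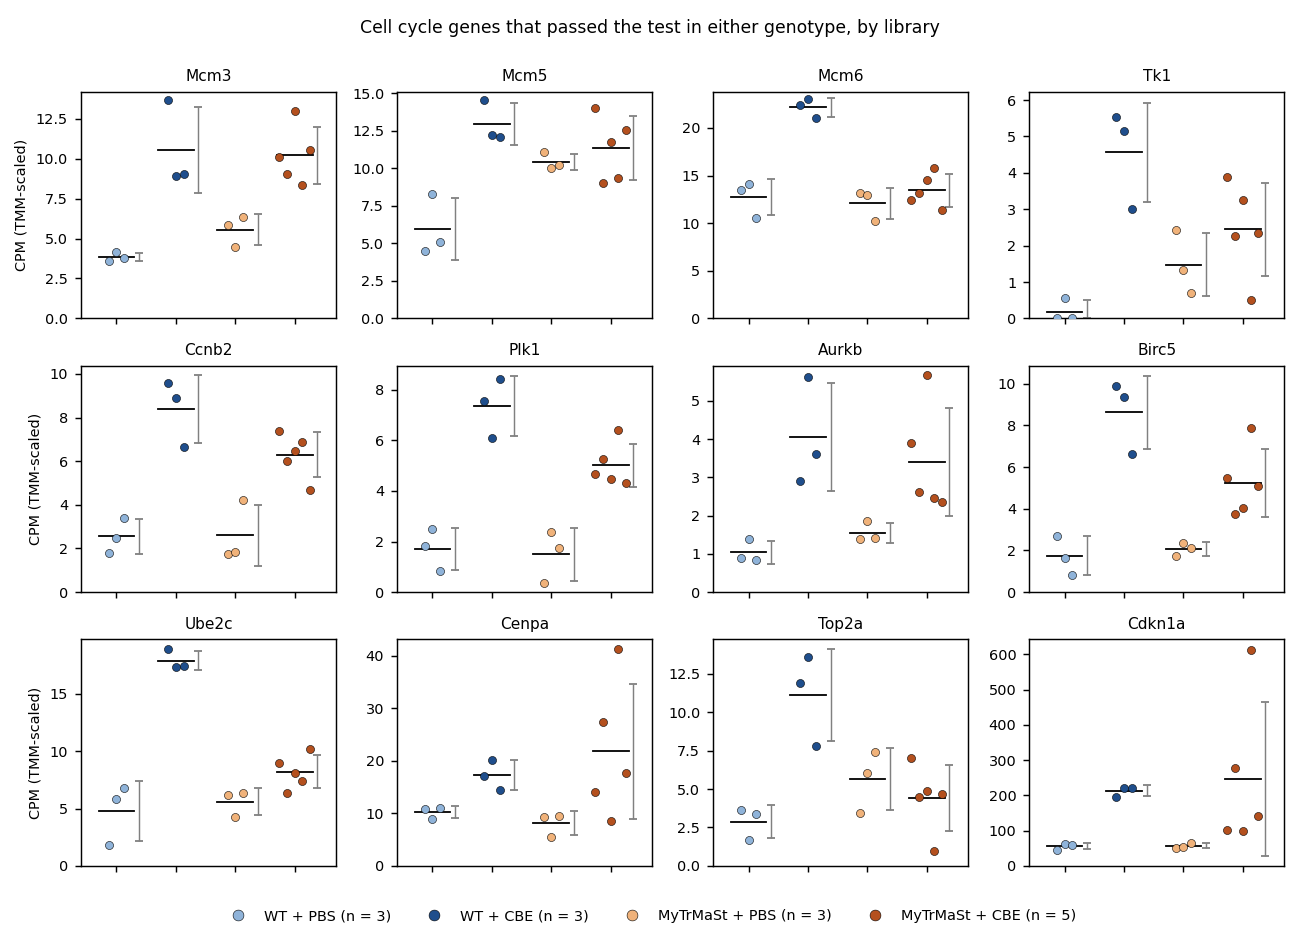
Level in CPM (y axis, starting at 0) in each of the 14 libraries (points) by group (x axis) for the 12 members that passed in WT or MyTrMaSt, with a line at the mean and a grey bar of 1 SD. Ube2c and Mcm6 show all 5 MyTrMaSt + CBE libraries below the 3 WT + CBE libraries, and Cdkn1a spreads from 98.5 to 613 CPM in MyTrMaSt + CBE.

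Among the genes of the centromere, the spindle and cytokinesis, Cenpa, the histone H3 variant that marks centromeres, rose in MyTrMaSt by 1.42 ± 0.39 on the log2 scale (adjusted p = 0.0307, edgeR). It was at 9.32, 5.55 and 9.51 CPM after PBS and at 14.03, 27.4, 8.51, 41.4 and 17.6 CPM after CBE, replicate 3 lying below the highest PBS libraries. The call was lost without any 1 of the 3 MyTrMaSt + PBS libraries or CBE replicate 2 or 4 (adjusted p up to 0.146). In WT all CBE libraries (17.2, 20.2 and 14.5 CPM) were above all PBS libraries (10.8, 8.84 and 10.97 CPM), and the log2 difference of 0.79 ± 0.44 did not pass (adjusted p = 0.294). Racgap1, which directs the contractile ring of cytokinesis, was at 0.30 in WT and 0.61 in MyTrMaSt on the same scale, and the spindle protein Tacc3 at 0.72 and 0.74, and neither passed.

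Top2a, the topoisomerase that untangles DNA in dividing cells, rose in WT and not in MyTrMaSt. It was at 3.61, 1.66 and 3.37 CPM in WT + PBS and at 11.9, 13.6 and 7.83 CPM in WT + CBE (log2 fold change 2.10 ± 0.47, adjusted p = 0.00681, edgeR). In MyTrMaSt it was at 3.45, 6.08 and 7.397 CPM after PBS and at 7.01, 4.51, 4.86, 0.985 and 4.70 CPM after CBE (log2 difference -0.32 ± 0.39, adjusted p = 0.656). The groups overlapped there, and the 5 MyTrMaSt + CBE libraries were all below the 3 WT + CBE libraries. The interaction, the test of whether the change with CBE differed between the genotypes, gave -2.42 ± 0.61 for Top2a, with an adjusted p of 0.126 by edgeR and 0.0323 by DESeq2.

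The 160 bases before the start of Top2a (chr11:99024190-99024349, - strand) are shown because the gene had the lowest adjusted p of the members in the interaction, and hold CCAAT letters on both strands and the CHR letters on the opposite strand.
Top2a: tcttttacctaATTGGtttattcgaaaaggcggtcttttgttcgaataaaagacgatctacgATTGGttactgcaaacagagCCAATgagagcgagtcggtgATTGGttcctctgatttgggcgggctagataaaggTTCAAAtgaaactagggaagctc
In this stretch the CHR lay 23 bases before the start, and the CCAAT matches at 149, 98, 78 and 58 bases.

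Stmn1 and H2afz, which are high in dividing cells but also used by cells that do not divide, did not pass in WT, where Top2a rose. In MyTrMaSt none of these genes passed. Stmn1, a regulator of microtubules with high levels in young neurons, was at 385, 321 and 418 CPM in WT + PBS and at 319, 242 and 246 CPM in WT + CBE, the one member with every CBE library below every PBS library in WT. Its log2 fold changes of -0.47 ± 0.24 in WT (adjusted p = 0.231) and -0.48 ± 0.21 in MyTrMaSt (adjusted p = 0.173) did not pass by edgeR. H2afz, a histone H2A variant, stayed between 127 and 199 CPM in all 14 libraries, with log2 fold changes of 0.10 and -0.07.

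Cdkn1a, the inhibitor of cyclin-dependent kinases p21, rose in both genotypes and was the tested member with the highest level after CBE among those that passed. The gene lies at chr17:29090976-29100727 on the + strand of GRCm38. It was at 45.1, 62.2 and 59.1 CPM in WT + PBS and at 195, 222 and 222 CPM in WT + CBE, a log2 fold change of 1.92 ± 0.51 (adjusted p = 0.0225, edgeR). Without the adaptors, in MyTrMaSt, it was at 51.8, 53.6 and 64.5 CPM after PBS and at 102, 276, 98.5, 613 and 141 CPM after CBE, a log2 fold change of 2.12 ± 0.48 (adjusted p = 0.00968). All CBE libraries were above all PBS libraries. The MyTrMaSt + CBE libraries covered a range that included the 3 WT + CBE libraries, and the difference between genotypes after CBE did not pass (0.21 ± 0.43, adjusted p = 1). Leaving out WT + CBE replicate 2 or 3 took the call in WT past the threshold (up to 0.0629), and leaving out MyTrMaSt + PBS replicate 1 or 2 that in MyTrMaSt (up to 0.0517). The value in MyTrMaSt was 1.45 without CBE replicate 4, and that in WT 2.98 with the Xist level as a covariate.

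Between the genotypes, 0 of the 26 members passed after PBS, where 0.0337% of all genes were higher and 0.152% lower in MyTrMaSt, and 0 passed by DESeq2. At an unadjusted p below 0.05, 3 members were higher and 0 lower, where 6.17% of all genes were higher and 10.7% lower. After CBE, 2 members were lower and 0 higher in MyTrMaSt, where 2.35% of all genes were lower and 0.194% higher. These were Ube2c and Mcm6, and the median of the members was -0.22 on the log2 scale. Top2a did not pass there by edgeR (-1.32 ± 0.36, adjusted p = 0.0730) and did by DESeq2. In the interaction 0 members passed by edgeR and 1, Top2a, by DESeq2, where 0.413% of all genes were lower and 0.0759% higher by edgeR. At an unadjusted p below 0.05, 5 members were lower and 0 higher, where 4.94% of all genes were lower and 7.59% higher, and values ran from -3.13 (Tk1) to 1.11, with a median of -0.34. That a member passed in WT and not in MyTrMaSt was therefore not a tested difference, except as given for the interaction. The comparisons within WT and between the genotypes share the same libraries.

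The 9 members below the filter had at most 7 to 17 counts in any library. When the filter was left out, 0 of the 9 passed in either genotype by edgeR (lowest adjusted p 0.0714 in WT and 0.110 in MyTrMaSt, both for Nusap1), and 4 in WT and 1 in MyTrMaSt had an unadjusted p below 0.05. Their summed counts per depth in WT were higher after CBE in 9 of 9, and in 5 of 9 the 95% counting interval of the ratio lay above 1. Of all 783 genes below the filter with a mean count per library within the members' range, 3.36 to 5.29, 49.8% were higher and 11.2% had such an interval in WT, and 49% and 10.9% in MyTrMaSt. The 5 members were Cenpe, a kinesin of the kinetochore (ratio 4.52, interval 1.68 to 15.2), Nusap1, a binder of spindle microtubules (3.79, 1.61 to 10.3), Kif23, a kinesin of the midbody (2.95, 1.12 to 9.07), Prc1, which bundles microtubules of the central spindle (2.77, 1.35 to 6.10), and Kif11, the kinesin that separates the spindle poles (2.53, 1.01 to 7.15). In MyTrMaSt 5 of 9 ratios were above 1, and only the interval of Nusap1 was (3.36, 1.35 to 9.98). Cenpe (0.672, 0.294 to 1.51) and Kif23 (0.596, 0.234 to 1.47) had ratios below 1 there. The checkpoint gene Bub1b was at 1.96 (0.526 to 8.91) in WT and 2.09 (0.982 to 4.85) in MyTrMaSt. Cdc20, the activator of the anaphase-promoting complex, was at 2.62 (0.973 to 8.17) and 1.86 (0.858 to 4.36), and the B-type cyclin Ccnb1 at 1.96 (0.742 to 5.75) and 1.23 (0.566 to 2.77). Cdkn2c (p18), an inhibitor of Cdk4 and Cdk6, was at 1.24 (0.599 to 2.63) and 0.857 (0.438 to 1.69). These intervals cover counting error only, and libraries of 1 group differed by more than that.

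**Figure D3:**
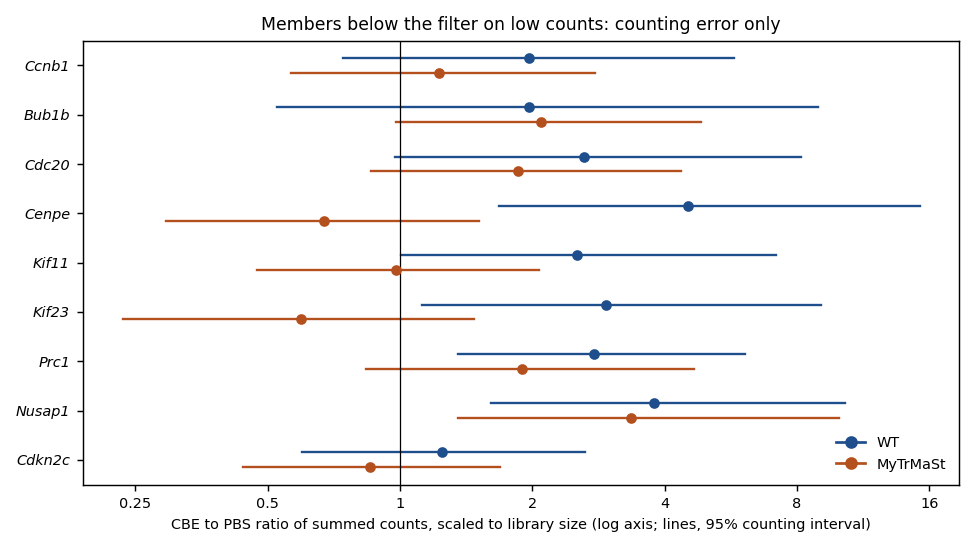
Ratio of summed counts per depth after CBE against PBS (x axis, log scale) for the 9 members below the filter on low counts (y axis), in WT and in MyTrMaSt, with 95% counting intervals. All 9 WT points lie above 1, and 5 of their intervals do not reach 1, against 1 in MyTrMaSt.

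The few calls among the other G1/S and replication genes are to be read against the 6.7% higher and 3.89% lower of all genes in WT and the 5.32% and 2.44% in MyTrMaSt. Of 22 other G1/S regulators, 17 were tested, and in WT 1 rose, Myc (0.94 on the log2 scale, adjusted p = 0.0411), and 2 fell, the cyclin Ccne1 (-1.07, adjusted p = 0.0337) and Mycn (-0.86, adjusted p = 0.0475). None of the 17 passed in MyTrMaSt by edgeR, where 5 had an unadjusted p below 0.05, a share near that of all genes. Of 38 other replication genes, 28 were tested. Cdt1, which loads the helicase at origins, rose in WT (1.37, adjusted p = 0.0403) and in MyTrMaSt (1.35, adjusted p = 0.0321). Gins2 rose in WT (1.72, adjusted p = 0.0111) and Gins1, like Gins2 a subunit of the active helicase, in MyTrMaSt (1.69, adjusted p = 0.0479). Dut, which removes dUTP, fell in both (-1.08, adjusted p = 0.0294, and -0.92, adjusted p = 0.0137). In MyTrMaSt Rpa2, of the single-strand binding complex, also rose (0.53, adjusted p = 0.0473) and Gins4 fell (-0.56, adjusted p = 0.0330).

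Of 41 other mitosis genes, 16 were tested. In WT 3 rose and 0 fell: Foxm1, a transcription factor of mitotic genes (1.74, adjusted p = 0.0352), the spindle protein Ckap2 (1.53, adjusted p = 0.0163) and the kinetochore subunit Spc24 (1.21, adjusted p = 0.0142). In MyTrMaSt 1 rose, Cks1b, a partner of cyclin-dependent kinases (0.92, adjusted p = 0.0449, edgeR). Of the 4 tested of 5 other inhibitors of cyclin-dependent kinases, 0 passed in either genotype, with an unadjusted p below 0.05 for 1 in WT and 0 in MyTrMaSt. Of 14 tested of 20 other p53 target genes, 1 passed, Phlda3, which fell in WT (-1.05, adjusted p = 0.0237), in contrast to Cdkn1a. At an unadjusted p below 0.05 there were 4 of the 14 in each genotype, a share near that of all genes. None of the genes of these 5 lists passed between the genotypes or in the interaction, where 0 to 4 of a list had an unadjusted p below 0.05. Of all 11852 genes, 1994 had such a p between genotypes after PBS, 955 after CBE and 1485 in the interaction.

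Markers of several cell types changed with CBE, some upwards like the members and others downwards. The counts of markers are to be read against the 6.7% higher and 3.89% lower of all genes in WT and the 5.32% and 2.44% in MyTrMaSt. Of 11 tested microglia markers, 7 rose in WT and 6 in MyTrMaSt. Their summed level was 319 to 393 CPM in WT + PBS, 800 to 1001 CPM in WT + CBE, 321 to 361 CPM in MyTrMaSt + PBS and 622 to 717 CPM in MyTrMaSt + CBE. As for the mitotic kinases and regulators, WT + CBE lay above MyTrMaSt + CBE, and both lay above the PBS groups, whose ranges overlapped. In the other 7 role groups the ranges of WT + CBE and MyTrMaSt + CBE overlapped. Aif1, a microglial calcium-binding protein, was lower in MyTrMaSt than in WT after CBE (-1.60 on the log2 scale). Of the markers of leukocytes recruited from blood, 2 of 11 were listed and none tested, with a sum of at most 2.84 CPM in any library. Of 8 astrocyte markers, 4 rose in WT and 3 in MyTrMaSt, with Gfap at 3.31 in both on the log2 scale. Their sum was 2504 to 3263 CPM in WT + PBS, 3936 to 4220 CPM in WT + CBE, 3116 to 3536 CPM in MyTrMaSt + PBS and 4206 to 4533 CPM in MyTrMaSt + CBE. Of 8 markers of mature oligodendrocytes, 7 fell in WT and 0 passed in MyTrMaSt by edgeR, where 4 had an unadjusted p below 0.05, and 2 (Mobp and Cldn11) were higher in MyTrMaSt than in WT after CBE. They summed to 17201 to 20880 CPM in WT + PBS, 10423 to 13495 CPM in WT + CBE, 17040 to 20426 CPM in MyTrMaSt + PBS and 12890 to 17157 CPM in MyTrMaSt + CBE. Of 8 neuron markers, 3 fell in WT and 1 in MyTrMaSt, and of 8 markers of endothelium and pericytes, 0 passed in WT, also without adjustment, and 1 fell in MyTrMaSt. Markers of oligodendrocyte precursors, cells that divide in the young brain, summed to 944 to 1088 CPM in WT + PBS and 709 to 882 CPM in WT + CBE, and to 1103 to 1241 CPM in MyTrMaSt + PBS and 738 to 1011 CPM in MyTrMaSt + CBE, with 1 marker lower in WT and 1 higher and 1 lower in MyTrMaSt. Markers of neural progenitors and neuroblasts summed to 104 to 222 CPM in WT + PBS, 260 to 284 CPM in WT + CBE, 172 to 208 CPM in MyTrMaSt + PBS and 205 to 292 CPM in MyTrMaSt + CBE, where 1 of 10 tested, Igfbpl1, rose in both genotypes (2.05 and 1.45) and 6 of the 10 had a positive log2 fold change in each. Of 7 markers of cerebellar granule cell precursors 3 were tested, of which 0 passed in either genotype and 0 had an unadjusted p below 0.05. In WT 3 had a positive log2 fold change, and in MyTrMaSt 1. The 6 listed markers summed to 163 to 216 CPM in WT + PBS and 219 to 267 CPM in WT + CBE. In MyTrMaSt the sums overlapped, at 168.5 to 275 CPM after PBS and 202 to 235 CPM after CBE. The part of these cell types in the results of the members was not tested.

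**Figure D4:**
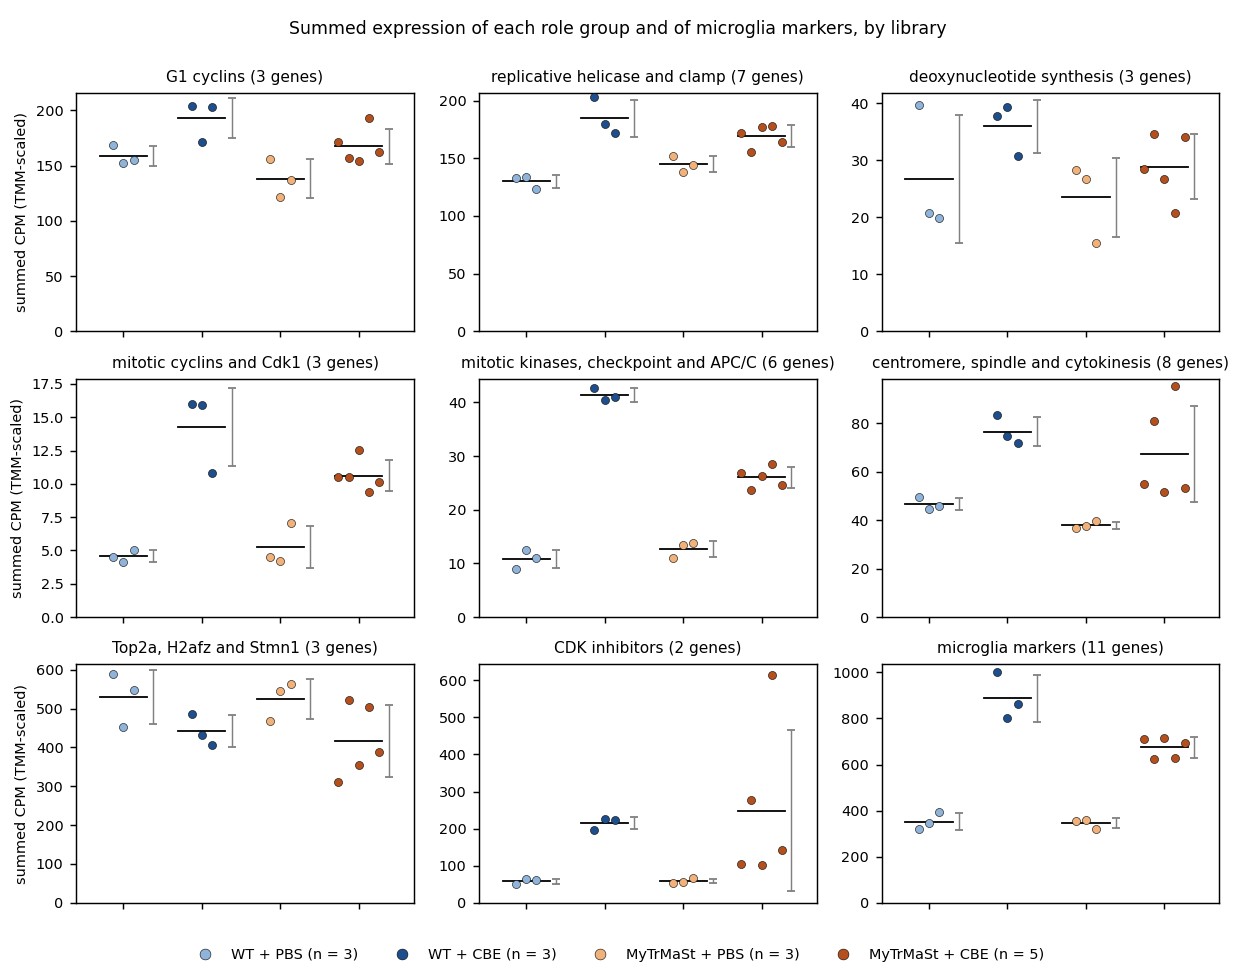
Summed level in CPM (y axis, starting at 0) of the listed members of each of 8 role groups and of the microglia markers, in each of the 14 libraries by group (x axis). The mitotic kinases, checkpoint and APC/C group is lowest in the PBS groups, at 23.7 to 28.6 CPM in MyTrMaSt + CBE and at 40.4 to 42.8 CPM in WT + CBE, and the microglia markers also place WT + CBE above MyTrMaSt + CBE and both above the PBS groups.

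The RefSeq promoters of GRCm38.p6, 250 bases before to 50 bases after the start, matched 33 of the 40 members with 38 promoters. CCAAT was found in 76.3% of these, against 37.4% of all 32851 promoters of that length, and the CHR letters in 42.1% against 17.9%. The difference was wider close to the start: the CHR letters lay within 50 bases of it in 36.8% of the members' promoters and in 4.94% of all promoters. E2F letters were found in 13.2% of the members' promoters and in 2.26% of all. By role, the mitotic members held the CHR in 66.7% of 18 promoters and the E2F letters in 5.56%, whereas the helicase and clamp genes held the CHR in 14.3% of 7 promoters and the E2F letters in 57.1%, as in the Mcm5 and Mcm6 sequences above. None of the 6 promoters of G1 cyclins and CDK inhibitors held the CHR or the E2F letters. The members that passed did not share a motif: the CHR was in 41.7%, CCAAT in 66.7% and E2F in 25% of their 12 promoters, and Birc5, Tk1 and Cdkn1a had none of the letters searched. A match is a description of the sequence and not a measured binding site.

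**Figure D5:**
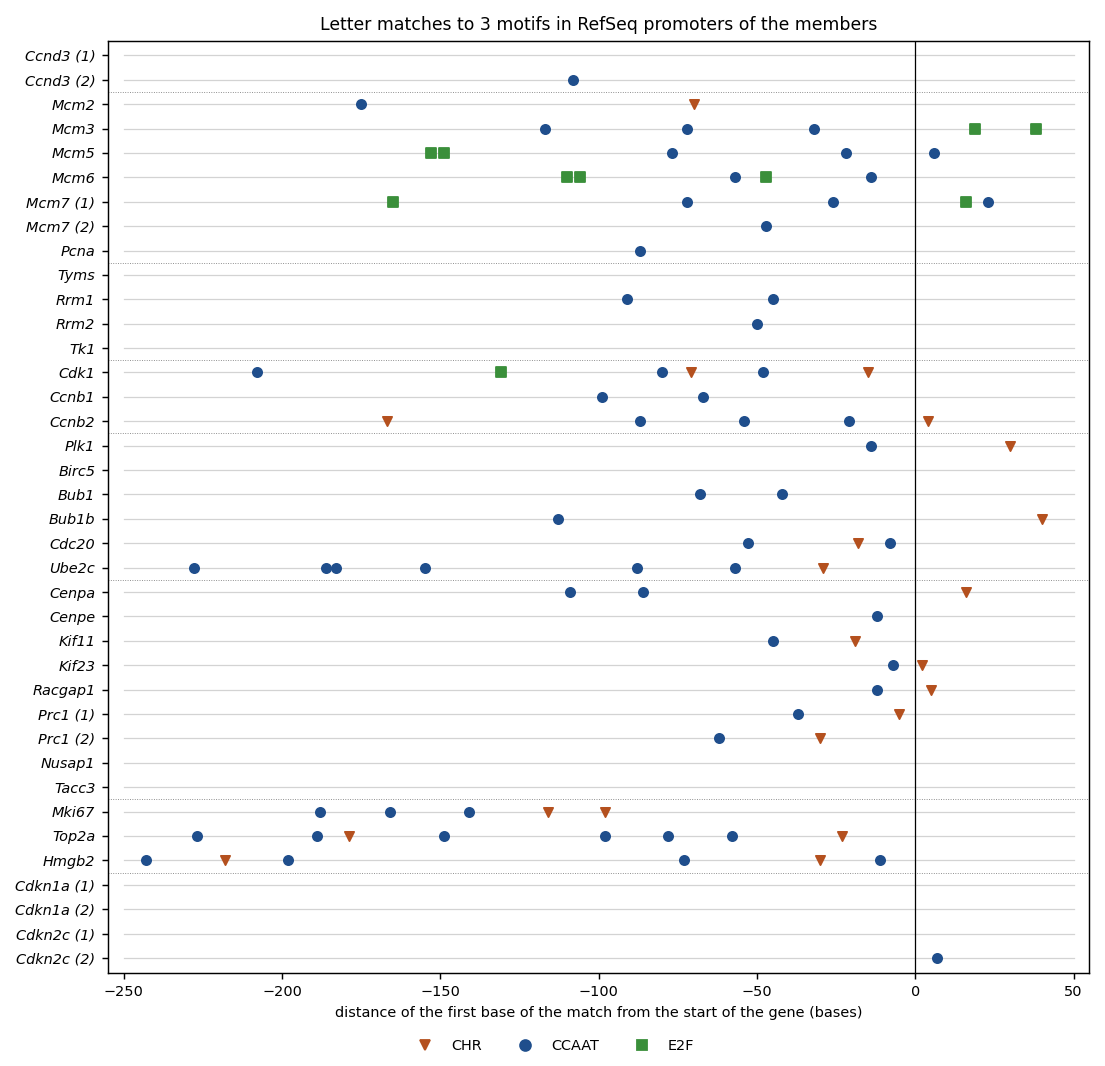
Distance in bases from the gene's start (x axis, negative before the start) of each match to the CHR, CCAAT and E2F letters in the members' promoters (y axis, by role). CHR matches of mitotic members gather near the start, and E2F matches are mostly in the helicase and clamp genes.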

How the data were processed

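The authors deposited whole-number counts of reads per gene for 14 brain libraries, made by MARSseq with paired-end reads mapped uniquely to mm10 with hisat. The submitters' processing notes also name cutadapt and HTSeq, and the strand setting, the use of molecular identifiers and the annotation are not given in the sources used here. A table of normalized values and the authors' columns of fold changes and p-values were not used. One cell of the counts spelled with an exponent was read as a whole number.

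Genes were tested on these counts by edgeR 4.0.16 under R 4.3.3 (TMM scaling, filterByExpr, quasi-likelihood F-test), with 1 mean for each of the 4 groups fitted over all 14 libraries. The p-values were adjusted by Benjamini-Hochberg over 11852 genes, with a threshold of 0.05. Fold changes are given as log2 ± standard error. Totals of 1290616 to 3704691 counts per library set the precision. A floor of 3 counts and exact 95% counting intervals were used for low genes, and both cover counting error only. The fit was also tested on simulated data for WT + CBE against WT + PBS, with 200 of 11852 genes changed. It recovered 44% of 2-fold rises and 52% of 2-fold falls, and 92% and 84% of 4-fold ones, with 11 false calls. A gene that did not pass can therefore still have changed.

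The members, their role groups, the other lists and the tests were chosen with earlier results of these data known. The text names all members, and from each other pathway list up to 4 genes with the largest change among those that passed. Rpa2, Gins4 and the cell type markers were named after their values were seen. Gene positions are from GENCODE M21 on GRCm38, and promoters from RefSeq on GRCm38.p6. Of the 35 listed members, 13 overlap an exon on the opposite strand. Alternatives were RLE scaling, DESeq2 1.42.0, other filters, fits of the compared groups only, a replicate block, Xist as a covariate and leaving out each library.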

Additional observations from a re-analysis of the deposited data

Results flagged for a closer look

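In MyTrMaSt + CBE, the level of Cenpe in replicate 2, 1.88 CPM, lay far from the other 4 libraries, which held 0.779 to 0.985 CPM. In counts the 5 libraries held 2, 5, 2, 2 and 2, so that 4 of them were under the floor of 3 counts and the narrow spread among these came from equal low counts. The gap was 0.813 of the range, where the critical value of Dixon's test for 5 libraries is 0.71. Of 43 groups of values examined in this way, 1 passed, and chance alone gives about 1 in 20.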

How the results depend on the processing

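No gene called among the members changed direction under any of the alternatives run. In WT, the count of 11 members became 3 with at least 10 counts required in every library, where 13 members remained to be tested, 4 with the Xist level as a covariate (Ccnb2, Birc5, Ube2c and Cdkn1a) and 7 with only the compared groups. In MyTrMaSt the count of 6 became 2 under that count minimum, and 1 to 8 when 1 library was left out. Between genotypes after CBE the count of 2 became 1 and 0 to 3. In the interaction, DESeq2 called 1. The replicate numbers did not pair the samples (correlations of same-numbered deviations -0.18 to 0.17 over 18 pairs, 3 of them over 0.1), and with a replicate block 11 members passed in WT, 1 in MyTrMaSt and 0 between genotypes after CBE. RLE scaling and no filter on low counts left these counts at 11, 6 and 2. The log2 fold change of Cdkn1a in MyTrMaSt was 1.39 with the replicate block, against 2.12 in the main fit.

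Some values that had not passed changed sign. In WT, Ccnd2 was -0.11 and Mcm2 -0.708 with Xist as a covariate, and Mcm7 was -0.0003 by DESeq2 and -0.039 with the replicate block. After CBE between genotypes, the replicate block gave 0.014 for Aurkb, -0.076 for Cenpa and -0.52 for Cdkn1a, and Xist as a covariate -0.10 for Cdkn1a. In the interaction, Xist as a covariate gave -0.37 for Cenpa and -1.35 for Cdkn1a, and the replicate block -0.57 for Cdkn1a. Leaving out 1 library gave, in WT, -0.25 to 0.22 for Ccnd2, -0.39 to 0.57 for Mcm2, -0.089 to 0.15 for Mcm7 and -0.0095 to 0.34 for H2afz. In MyTrMaSt it gave -0.13 to 0.071 for Ccnd1 and -0.15 to 0.060 for H2afz. Between genotypes after CBE it gave -0.20 to 0.18 for Mcm3, -0.47 to 0.10 for Aurkb, -0.034 to 0.51 for Cenpa and -0.46 to 0.41 for Cdkn1a. In the interaction it gave -0.60 to 0.11 for Ccnb2, -0.96 to 0.20 for Plk1 and -0.47 to 0.40 for Cdkn1a. The causes were not tested.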

Other observations

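In MyTrMaSt + CBE, 15 of the 35 listed members had their highest CPM of the 5 libraries in replicate 4, among them Cdkn1a (613 CPM), Cenpa (41.4 CPM), Birc5 (7.88 CPM) and Plk1 (6.40 CPM), against 3 to 6 in each of the other 4 libraries. The lowest CPM fell in replicate 4 for 8 members and in replicate 5 for 12. The SD over genes of the deviations of replicate 4 from its group was 0.41.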
